A study of Mus musculus with 72 samples.

Results

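The genes of respiratory complex I, NADH:ubiquinone oxidoreductase, were followed in 4 tissues of female SAMP1 mice (senescence accelerated mice prone 1, an inbred strain that ages early) given coenzyme Q10. Members were the probe sets whose platform gene symbol begins with Ndufa, Ndufb, Ndufc, Ndufs or Ndufv, assembly factors of the Ndufaf series included. The rule found 98 of the 45101 probe sets of the array, 88 with 1 symbol and 10 with several. The 88 stood for 44 genes, sorted by role into the N module (9 genes), the Q module (5), the membrane arm (20), the assembly factors (8) and the pair Ndufa4 and Ndufa4l2. Each gene was read from its brightest single-symbol probe set, and 43 genes passed the filter on low signal in every tissue. Ndufb4 did not pass: its single-symbol probe set was dim (mean signal 8.19), while 2 probe sets it shares with Ndufb4b and Ndufb4c were bright (means 2472 and 1787) and passed.

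Complex I is the entry point of electrons from NADH into the respiratory chain of the inner mitochondrial membrane. Its N module oxidises NADH, its Q module passes the electrons to ubiquinone (coenzyme Q), and its membrane arm pumps protons. Ubiquinone is the substrate of the enzyme and ubiquinol its product, and the complex is built stepwise with the help of assembly factors that are not part of the finished enzyme. Heart muscle is known for its dense mitochondria.

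The mice received QH2 (the reduced form, ubiquinol), Q10 (the oxidised form, ubiquinone) or a control diet, starting at 4 weeks of age. Intake of either compound came to 500 mg per kg of body weight per day. After 14 or 6 months on the diet, at an age of 15 or 7 months, liver, kidney, heart and brain were taken and total RNA was hybridised as biotin-labelled cRNA to Affymetrix mouse arrays. There were 24 groups of 3 arrays, with all mice of 1 sex and strain. Animals shared cages of 3 to 6 whose grouping did not change, so cage and diet may coincide, and the labels do not tie the arrays of 1 mouse together across tissues.

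All signals below are array intensities on a linear scale with no unit. For the comparison of tissues, and for the marker sums of this paragraph, all 72 arrays were brought to a common distribution. For diet and duration this was done between the arrays of a tissue, so the signals of an array differ between these parts of the text. Before normalisation the mean signal of a single array was between 84.6 (a liver array) and 279 (heart and brain). The 3′/5′ signal ratio of Actb, a control for RNA degradation and labelling, spanned 1.59 to 7.36 over the liver arrays. It spanned 1.64 to 3.37 over those of kidney and was at most 2.22 in heart and 1.95 in brain. The tissue labels fitted their markers: summed hepatocyte marker signal was 60080 or more on every liver array, summed cardiomyocyte signal 58066 or more in heart, kidney tubule signal 34829 or more in kidney and neuron signal 23153 or more in brain. On arrays of the other tissues, hepatocyte sums reached 13339 (brain) and cardiomyocyte sums 591 (brain). Kidney tubule sums reached 108 there and neuron sums 343 (both in heart). A gene was called when limma's moderated test, adjusted by Benjamini-Hochberg over all 27022 probe sets tested in that tissue (27021 in kidney), gave an adjusted p under 0.05.

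Across tissues, complex I genes stood highest in heart. Read from its brightest probe set, each of the 43 genes had its highest mean there. Of these genes 18 followed the order heart, kidney, liver, brain, with 16 in the order heart, kidney, brain, liver. In the fit over the 72 arrays, 41 of 43 genes were higher in heart than in kidney, against 40.5% of all probe sets, and 16 of them were at least 2-fold higher, against 16.5%. Heart exceeded brain in all 43 (background 46%), with 32 at least 2-fold apart (25.6%), and liver in 42 (43.7%), with 30 at least 2-fold apart (22.7%). The median log2 differences were 0.78 against kidney, 1.37 against brain and 1.37 against liver, while the median over all probe sets tested was 0.05, 0.13 and 0.10. Dimmer probe sets did not all follow. Of all 92 member probe sets, 85 were higher and 4 lower in heart than in kidney. The counts were 89 and 2 against brain, and 86 and 4 against liver. A dimmer probe set of Ndufb8 had means of 36.6 in heart, 81.6 in kidney and 60.3 in liver. For 1 of Ndufa7 they were 424, 531 and 522. Because whole tissue was measured, more cells rich in mitochondria and more RNA per cell cannot be told apart in any of these comparisons.

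Ndufs1, the large iron-sulphur subunit of the N module, had a lowest, median and highest signal of 2893, 3844 and 4351 over the 18 heart arrays. In kidney these values were 940.0, 1475 and 1812, in brain 774, 889.7 and 959.6, and in liver 437.5, 755 and 858.5. Every heart array of Ndufs1 lay above every array of the other tissues. The log2 differences were 1.41 ± 0.04 (SE) between heart and kidney, 2.08 ± 0.04 between heart and brain and 2.36 ± 0.04 between heart and liver, and brain exceeded liver by only 0.28 ± 0.04 with overlapping arrays. Ndufv3, a small accessory subunit of the N module, differed by 1.58, 2.48 and 1.85 in the same 3 comparisons. Ndufv1, which binds NADH, differed by 0.71, 1.56 and 1.44, and its partner Ndufv2 by 0.83, 1.36 and 1.65.

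In the Q module, the iron-sulphur subunit Ndufs7 was 1.01, 1.87 and 1.90 log2 units higher in heart than in kidney, brain and liver. Ndufs3 differed by 0.86, 1.56 and 1.27. Ndufs8, read from its brightest probe set, was an exception on the kidney side. Its difference between heart and kidney was 0.10 ± 0.08 (adjusted p = 0.231, limma), with ranges of 4221 to 5955 in heart and 3433 to 5937 in kidney. Dimmer probe sets of Ndufs8 did not all follow. Their means in heart and kidney were 4811 and 4122, 4710 and 4027, 2131 and 1012, 1810 and 998, and 77.0 and 39.7. The other gene that did not pass between heart and kidney was Ndufa2 of the N module, at 0.08 ± 0.05 (adjusted p = 0.0815, limma). Among membrane arm genes the largest heart excess over brain was that of Ndufb10 (2.10) and of Ndufab1, the mitochondrial acyl carrier protein (2.09), and Ndufc2 had the smallest (0.27).

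The assembly factors had a median heart excess over liver of 0.60 on the log2 scale, against 1.44 for the N module, 1.48 for the Q module and 1.51 for the membrane arm. Over kidney their median excess was 0.60, against 0.82, 0.86 and 0.78 in the same order. Over brain it was 1.16, against 1.56 for the N module, 1.56 for the Q module and 1.21 for the membrane arm, so there the assembly factors stood close to the membrane arm. These differences between roles were not tested. Ndufaf6 ran from 227 to 365 in heart and from 132 to 449 in liver, with medians of 281.1 and 284. Of the 43 genes it was the only one not called between these tissues (difference 0.01 ± 0.07, adjusted p = 0.897, limma). The same gene differed most of the 43 genes between brain and liver, with a median of 63.6 in brain and a log2 difference of -2.21 ± 0.07. Over all member probe sets, dimmer ones included, the differences there reached -4.3. Ndufaf1, which acts on an early intermediate of the membrane arm, was lower in kidney than in liver (-0.96 ± 0.05) and lower in brain than in liver (-1.07 ± 0.05). Ndufaf5 ran the other way, higher in brain than in liver by 1.02.

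Kidney exceeded brain in 37 of 43 genes and was lower in 4, against 44.5% and 37.2% of all probe sets, and exceeded liver in 37 with 3 lower, against 38.8% and 33%. The 3 genes lower in kidney than in liver were all assembly factors, Ndufaf1, Ndufaf6 and Ndufaf2. Brain and liver split evenly, 19 higher and 19 lower, against 41.8% and 43.8%. The direction between these last tissues depended on the scaling: the members' median difference between brain and liver was -0.01 after quantile normalisation, -1.06 after scaling each array to its 75th percentile and 0.53 with the values as deposited. That between kidney and liver was 0.46, -0.07 and 0.92 in the same order. The scalings also moved the median of all probe sets, which was -0.06, -0.21 and 1.32 between brain and liver and 0.04, -0.13 and 0.83 between kidney and liver. The members' median heart excess was positive in all 3 scalings, and above the median of all probe sets in each.

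Ndufa4 and Ndufa4l2 are a separate pair. Ndufa4 was first described as a complex I subunit and is now counted with complex IV, and Ndufa4l2 is its hypoxia-inducible paralog. Among the 43 genes, each read from its brightest probe set, Ndufa4l2 had the largest heart excess over each other tissue. Over all member probe sets, dimmer ones included, the largest heart excess was 3.11 against kidney, 3.71 against brain and 3.33 against liver. Ndufa4l2 had a lowest, median and highest signal of 108, 173 and 278 in heart, 19.3, 40.8 and 62.5 in kidney, 17.4, 23.7 and 34.1 in brain and 3.59, 23.8 and 59.8 in liver. No heart array overlapped with another tissue, and the log2 differences were 2.14, 2.79 and 3.08 against kidney, brain and liver (SE 0.18 each). Ndufa4 differed by 0.48, 0.62 and 1.06, with heart arrays between 5999 and 6421.

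**Figure D1:**
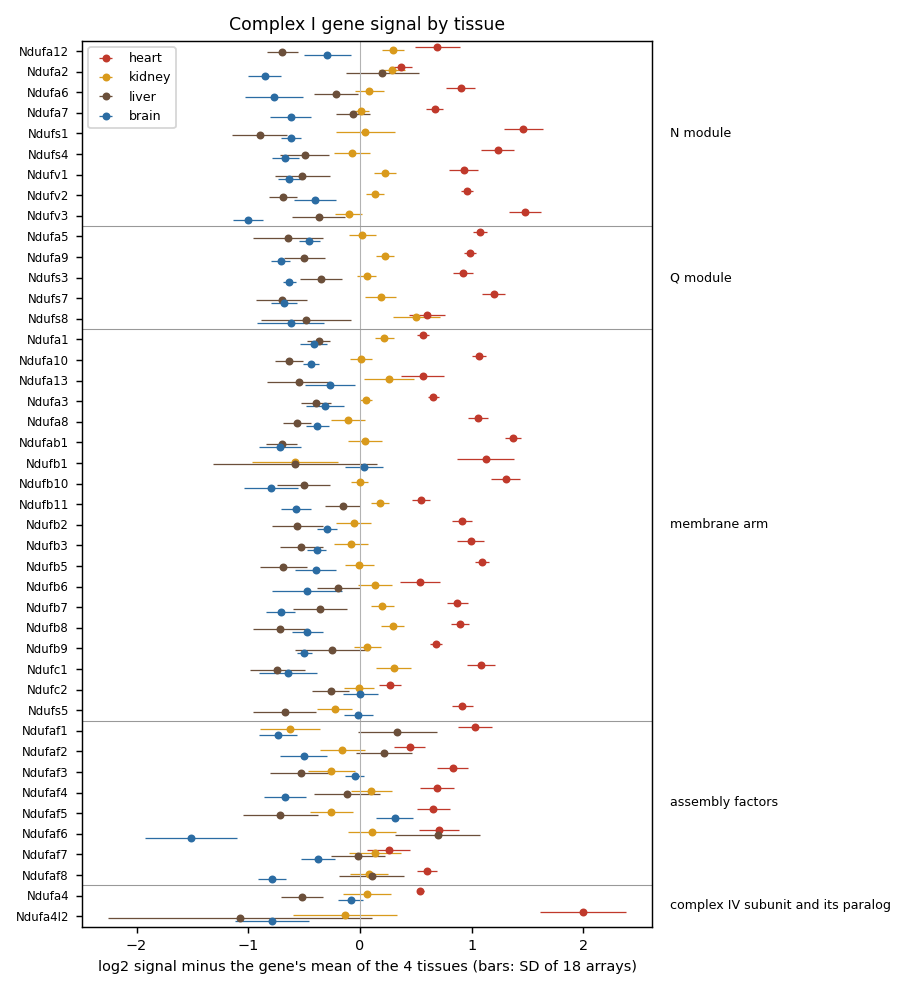
Log2 signal of 43 complex I genes in heart, kidney, liver and brain, as the difference from each gene's mean over the 4 tissues; points are tissue means and bars the SD of 18 arrays, and genes are grouped by role. The heart mean is the highest for all 43 genes, by 2.36 over liver for Ndufs1, while for Ndufaf6 heart and liver lie side by side.

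The subunits of complexes III to V gave similar counts. Of 39 such genes, 33 were higher and 3 lower in heart than in kidney (median 0.57), 36 higher and 3 lower than in brain (0.96), and 36 higher and 3 lower than in liver (1.17). Among 9 complex I assembly factors outside the naming rule, such as Nubpl, Ecsit and Acad9, 8 were higher and 1 lower in heart than in kidney.

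In liver at 14 months, complex I genes were higher on QH2 than on Q10. QH2 livers exceeded Q10 livers for 15 of 43 genes and were lower for none, while 9.74% of all probe sets were called and 4.81% were higher. The median difference of the members was 0.46 on the log2 scale, against 0.08 for all probe sets tested, and 42 of 43 differences were positive, the exception being Ndufa4l2 (-1.18, adjusted p = 0.222, limma). By role, the called genes were 8 of the membrane arm, 3 assembly factors, 2 of the N module and 2 of the Q module. The arrays of QH2 and Q10 did not overlap for 27 of 43 genes, against 25.9% of all probe sets. At 6 months none of the 43 was called between QH2 and Q10 (0.988% of all probe sets were called), none had an unadjusted p under 0.05 (10.6% of all probe sets had), and the median was 0.06.

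The assembly factor Ndufaf1 had the smallest p-value. Its signal was 168, 194 and 202 on QH2, 131, 67.7 and 99.96 on Q10 and 152, 155 and 136 on the control diet. The QH2 arrays all lay above the Q10 arrays and the control arrays, and the 3 Q10 arrays were the lowest of the 9. The difference between QH2 and Q10 was 0.96 ± 0.18 (SE; adjusted p = 0.00429, limma). Ndufaf8 (0.80 ± 0.19, adjusted p = 0.0156) and Ndufaf4 (0.75 ± 0.20, adjusted p = 0.0215) were the other called assembly factors. Ndufaf4 had 299, 537 and 555 on QH2, against 294, 227 and 280.3 on Q10, so the lowest QH2 array stood barely above the highest Q10 array.

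The membrane arm held most of the called genes. Ndufb9, an accessory subunit of its far end, had 3407, 3066 and 3407 on QH2, 2609, 1434 and 1846 on Q10 and 2863, 2825 and 3016 on the control diet. Here too the QH2 arrays were the highest and the Q10 arrays the lowest, with no overlap between any of the diets (QH2 minus Q10 0.79 ± 0.16, adjusted p = 0.00586, limma). Ndufb10 had 1356, 1163 and 1321 on QH2, 997, 621 and 706 on Q10 and 1060.2, 1076 and 1109 on the control diet, again in 3 separate sets. Its difference was 0.75 ± 0.15 (adjusted p = 0.00642, limma). Ndufb7 had 1793, 1644 and 1834 on QH2, against 1421, 970.0 and 952 on Q10 (0.68 ± 0.15, adjusted p = 0.0110). Ndufb3 had 728, 639 and 746 on QH2, against 548, 440.2 and 458 on Q10 (0.55 ± 0.12, adjusted p = 0.0110). In each of these genes the first Q10 array was nearest to the QH2 arrays. Ndufb8 (0.62) and Ndufb2 (0.60) were also called, as were Ndufb5 (0.43) and Ndufab1 (0.39).

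The catalytic core followed in part. Ndufv1 of the N module had 1387, 1255 and 1517 on QH2, against 1228, 696 and 839.6 on Q10, and was called at 0.63 ± 0.16 (adjusted p = 0.0206, limma). Ndufs7 of the Q module had 1122, 1127 and 1129 on QH2, against 1000.0, 525 and 753 on Q10 (0.62 ± 0.18, adjusted p = 0.0318). For both, the groups did not overlap, and the first Q10 array was nearest to the QH2 arrays. Ndufa5, an accessory subunit of the Q module, was called at 0.85 ± 0.22 and Ndufa6 of the N module at 0.52. Ndufs1 (0.46, adjusted p = 0.0545), Ndufs3 (0.46, adjusted p = 0.0572), Ndufv2 (0.32, adjusted p = 0.0820) and Ndufs8 (0.29, adjusted p = 0.516) did not pass limma's test. Neither did Ndufa4, at 0.21 ± 0.12 (adjusted p = 0.279).

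**Figure D2:**
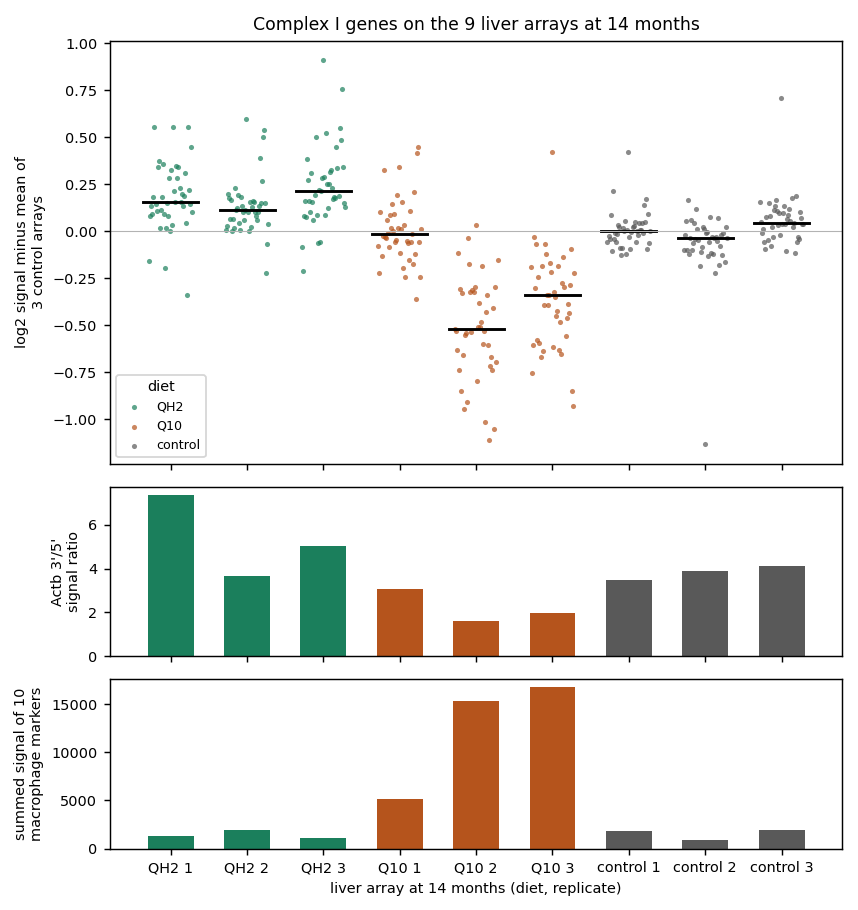
The 9 liver arrays at 14 months, by diet (QH2, Q10, control): log2 signal of 42 complex I genes (points, without Ndufa4l2) minus the mean of the 3 control arrays, with the median of all 43 as a line; the Actb 3′/5′ signal ratio; and the summed signal of 10 macrophage markers. The median lies at 0.16, 0.11 and 0.21 on the QH2 arrays and at -0.02, -0.52 and -0.34 on the Q10 arrays, whose macrophage sums are 5155, 15396 and 16757.

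The 3 Q10 livers were not alike, as the plot of the 9 liver arrays shows. Relative to the mean of the control arrays, the members' median was 0.16, 0.11 and 0.21 on the QH2 arrays, -0.02, -0.52 and -0.34 on the Q10 arrays and 0.00, -0.04 and 0.05 on the control arrays. The same Q10 arrays differed in 2 other measures. The Actb ratio was 7.36, 3.67 and 5.01 on QH2, 3.05, 1.59 and 1.98 on Q10 and 3.49, 3.88 and 4.11 on the control diet. Summed signal of 10 macrophage markers was 1283, 1895 and 1146 on QH2, 5155, 15396 and 16757 on Q10 and 1823, 845 and 1907 on the control diet.

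All 10 macrophage markers, 4 of 4 B cell markers tested and 5 of 5 neutrophil markers were called lower on QH2 than on Q10, while 0 of 6 hepatocyte markers were called. B cell marker signal summed to 74.1, 107 and 80.3 on QH2, 196, 3065 and 779 on Q10 and 62.2, 49.4 and 69.3 on the control diet. Neutrophil marker signal summed to 219, 67.3 and 129.9 on QH2, 288, 13963 and 5420.3 on Q10 and 619.5, 128 and 79.8 on the control diet. No marker of these lists was at 0 on all arrays of a group. Without Q10 arrays 2 and 3, 0 of 43 members were called between QH2 and Q10 and the median difference was 0.16. With the log2 Actb ratio as a covariate 0 were called as well, at a median of 0.10. The part of these cell markers and of RNA quality in the result was otherwise not tested.

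The count moved with single arrays. Leaving out 1 array at a time gave 33 calls without Q10 array 1, 4 without Q10 array 2 and 3 without Q10 array 3, and 6, 10 and 3 without QH2 arrays 1, 2 and 3. Ndufb9, Ndufaf1 and Ndufb10 remained called in all 6 of these fits. No member was called with the values as deposited or in a fit on the 2 groups alone, and 38 were after scaling to the 75th percentile. The share of all probe sets called in these fits is not given here, nor for the like fits below. The counts therefore show how the number of members moved and nothing particular to complex I.

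**Figure D3:**
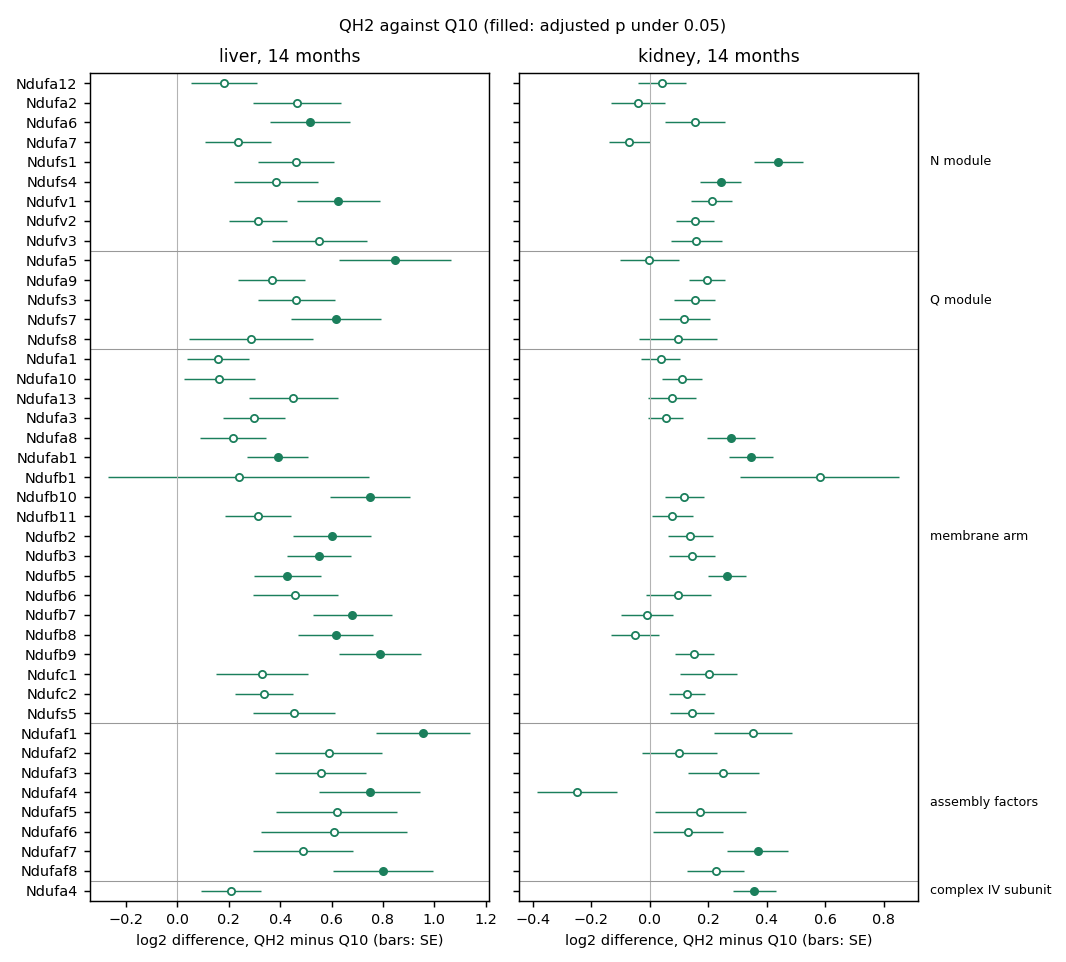
Log2 difference, QH2 minus Q10 at 14 months, for 42 genes (without Ndufa4l2) in liver and kidney, grouped by role; bars are SE and filled points have an adjusted p under 0.05. In liver all 42 points lie right of 0, and 15 are filled; in kidney 7 are filled, with Ndufs1 at 0.44.

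Against the control diet, few members passed for either compound in liver at 14 months. Q10 livers were lower than control livers for 40 of 43 genes by sign (median -0.29, against -0.10 for all probe sets), but 1 gene passed in each direction, with 6.21% of all probe sets called. Ndufb9 was lower on Q10 (-0.61 ± 0.16, adjusted p = 0.0317, limma), from the per-array values given above, and Ndufa4l2 was called higher, from signals near background that are given next. Ndufaf1 (-0.61, adjusted p = 0.0541) and Ndufb10 (-0.51, adjusted p = 0.0560) followed without passing. Without Q10 array 1, 22 members were called, without Q10 array 3 or control array 1 only 1, and without Q10 array 2, control array 2 or control array 3 none. QH2 livers were higher than control livers for 40 of 43 genes by sign (median 0.16, against 0.01), yet none passed limma's test, as no probe set did (0%), and 3 had an unadjusted p under 0.05, against 6.19% of all probe sets. QH2 and control arrays did not overlap for 19 of 43 genes, against 18.7% of all probe sets. These comparisons share the Q10, QH2 or control arrays with each other and are not independent. At 6 months no member was called for either compound against the control diet in any tissue. The share of all probe sets called there was 0.81% for Q10 in liver, 0.192% for QH2 in kidney and 0% in the others.

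The signals of Ndufa4l2 in liver lay near the level of the filter on low signal, a mean of 7.34 in this tissue. At 14 months its signal was 27.5, 31.4 and 8.66 on Q10, 3.25, 7.44 and 20.2 on QH2 and 5.64, 3.44 and 1.99 on the control diet. At 6 months it was 15.7, 11.5 and 5.82 on Q10, 12.7, 15.3 and 24.9 on QH2 and 24.8, 31.4 and 14.6 on the control diet. All 3 control arrays at 14 months lay under the level of the filter, which the gene passed through its higher groups (mean 14.8 over the 18 arrays). It was called higher on Q10 than on control at 14 months (adjusted p = 0.0330, limma) and lower at 14 than at 6 months on the control diet (adjusted p = 0.0163). With 1 side of both comparisons under that level, the arrays give the direction of these calls and no size.

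Of the other genes around complex I, 3 of 9 further assembly factors were higher on QH2 than on Q10 in liver at 14 months. These were Nubpl, which delivers iron-sulphur clusters (0.96 ± 0.19, adjusted p = 0.00431, limma), and Tmem186 (0.92 ± 0.26, adjusted p = 0.0293) and Ecsit (0.86 ± 0.25, adjusted p = 0.0355), which act in the same assembly complex as Ndufaf1. Against control, Nubpl (-0.68) and Tmem186 (-0.90) were lower on Q10. Of 8 regulators of mitochondrial genes 1 was called, Tfam, which maintains mitochondrial DNA (0.57 ± 0.13, adjusted p = 0.0109). Of 38 subunits of complexes III to V, 12 were higher on QH2 than on Q10 and none lower, with a median of 0.36.

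The promoters of 39 of the 44 genes were found in the RefSeq table of build GRCm38.p6, as 41 windows that run from 250 bases before to 50 bases after the start. Ndufa2, Ndufa4l2, Ndufaf6, Ndufb9 and Ndufs1 were without an entry. The 250 bases upstream of the start are shown for the 4 genes with the smallest p-values between QH2 and Q10 in liver that had one. They lie at chr2:119662835-119663084 on the minus strand (Ndufaf1), chr17:24724424-24724673 on the minus strand (Ndufb10), chr8:83566508-83566757 on the plus strand (Ndufb7) and chr1:58586147-58586396 on the plus strand (Ndufb3). Capitals mark the letters of the motifs searched.
Ndufaf1: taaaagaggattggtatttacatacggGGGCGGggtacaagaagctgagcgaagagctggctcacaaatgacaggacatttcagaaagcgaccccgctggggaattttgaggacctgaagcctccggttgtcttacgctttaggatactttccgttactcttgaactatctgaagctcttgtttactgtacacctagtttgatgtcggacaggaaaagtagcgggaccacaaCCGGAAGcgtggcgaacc
Ndufb10: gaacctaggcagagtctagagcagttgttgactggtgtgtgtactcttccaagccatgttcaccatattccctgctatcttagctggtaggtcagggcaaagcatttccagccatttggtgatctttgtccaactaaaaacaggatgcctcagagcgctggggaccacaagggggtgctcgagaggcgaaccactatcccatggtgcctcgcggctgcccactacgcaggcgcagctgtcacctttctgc
Ndufb7: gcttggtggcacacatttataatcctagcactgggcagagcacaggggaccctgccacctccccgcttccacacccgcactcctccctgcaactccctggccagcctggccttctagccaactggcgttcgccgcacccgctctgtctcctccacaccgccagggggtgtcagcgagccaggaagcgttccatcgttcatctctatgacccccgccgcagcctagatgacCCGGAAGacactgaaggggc
Ndufb3: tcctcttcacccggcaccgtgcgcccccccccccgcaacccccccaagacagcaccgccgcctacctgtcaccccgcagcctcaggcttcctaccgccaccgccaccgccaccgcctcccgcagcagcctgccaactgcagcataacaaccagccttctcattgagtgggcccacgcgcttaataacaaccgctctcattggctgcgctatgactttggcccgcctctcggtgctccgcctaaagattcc

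A set of 6 short motifs was searched on both strands, and a match is a description of the letters only. CCGGAAG, the core bound by ETS factors such as GABPA, began 18 bases before the start of Ndufaf1 and 20 bases before that of Ndufb7, and GGGCGG (SP1) began 223 bases before the start of Ndufaf1. None of the 6 was found upstream of Ndufb10 or Ndufb3. Over all member windows, CCGGAAG was held by 14.6%, against 8.86% of the 32851 promoter windows of the table. TGCGCA, part of the NRF1 site, was held by 26.8%, against 7.76%. ATGGCGG (YY1) was held by 24.4%, against 4.05%, and GGGCGG by 53.7%, against 35.7%. AAGGTCA (ERR nuclear receptors) was held by 7.32%, against 4.72%, and TGACGT (CREB) by 9.76%, against 7.51%. NRF1, GABPA and YY1 are known regulators of nuclear genes for the respiratory chain.

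In kidney at 14 months, QH2 again exceeded Q10, for 7 of 43 genes with none lower, while 6.04% of all probe sets were called and 3.98% were higher. The median difference was 0.14, against 0.04 for all probe sets. At 6 months no member was called between QH2 and Q10 (0.292% of all probe sets). Ndufs1 had 1579.8, 1401 and 1524 on QH2, 1082, 1020.0 and 1225 on Q10 and 1401, 1413 and 1283 on the control diet. The Q10 arrays were the lowest 3 of the 9 and did not overlap with QH2 (0.44 ± 0.08, adjusted p = 0.00640, limma). Ndufa4 had 5307, 4299 and 4548 on QH2, 3691, 3498 and 3817 on Q10 and 4139, 4591 and 4212 on the control diet, again with Q10 lowest (0.36 ± 0.07, adjusted p = 0.0104). Ndufab1 had 2518, 2003 and 2144 on QH2, against 1735, 1697 and 1789 on Q10 (0.35 ± 0.07, adjusted p = 0.0131). The other called genes were the assembly factor Ndufaf7 (0.37), Ndufa8 (0.28), Ndufb5 (0.26) and Ndufs4 (0.24), and Ndufv1 at 0.21 did not pass (adjusted p = 0.0747).

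The kidney count depended on single arrays, from 2 without QH2 array 1 or without Q10 array 2 to 9 without Q10 array 1. Without QH2 array 3 it was 3 and without Q10 array 3 it was 4. Ndufs1 remained called in all 6 such fits. No member was called with the values as deposited or in a fit on the 2 groups alone. Macrophage marker signal summed to 2977, 2303 and 2943 on QH2, 3250.3, 14634 and 7381 on Q10 and 4788, 2386 and 5900.2 on the control diet, and 4 of 10 macrophage markers and 1 of 4 B cell markers were called lower on QH2 than on Q10. Of 4 brown adipocyte markers 1 was called higher on QH2, with sums of 8698, 10336 and 8535, against 5194, 656 and 4014 on Q10. The Actb ratio was 2.05, 3.37 and 2.47 on QH2, against 3.22, 1.64 and 2.37 on Q10, and 6 members were called with it as a covariate. The part of the cell markers in the result was not tested. Nubpl was higher on QH2 than on Q10 (0.87 ± 0.13, adjusted p = 0.00151, limma), as were 11 of 39 subunits of complexes III to V, while Yy1 was lower (-0.44 ± 0.09, adjusted p = 0.0102).

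Against the control diet no member was called in kidney for either compound at 14 months. For Q10 the median was -0.09, with 7 genes at an unadjusted p under 0.05 (12.6% of all probe sets) and 0.67% of all probe sets called. For QH2 it was 0.04, with 1 gene at an unadjusted p under 0.05 (5.84% of all probe sets) and 0% of all probe sets called. In heart no member was called between any pair of diets at either time, and at most 0.0666% of all probe sets were (QH2 vs Q10 at 6 months). The nearest was Ndufs1, 0.27 lower by sign on Q10 than on control at 14 months (-0.27 ± 0.07, adjusted p = 0.172, limma), and 9 members had an unadjusted p under 0.05 in that comparison, against 9.69% of all probe sets. In brain no member was called between diets either, with at most 0.0111% of all probe sets called (QH2 vs control at 14 months). QH2 brains stood above control brains by sign in 38 of 43 genes at 14 months and 35 at 6 months, with medians of 0.06 each. The members varied together on the brain arrays (median correlation 0.21 between pairs, within groups), so these signs are not 43 separate observations. At an unadjusted p under 0.05 were 4 genes at 14 months (4.99% of all probe sets) and 7 at 6 months (8.56%).

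Whether a compound acted differently at 14 than at 6 months was tested directly as an interaction. Of the 43 members, 1 passed for Q10 in liver, Ndufa4l2 with its dim control arrays, with 2.33% of all probe sets called, and none for QH2 in liver or for either compound in the other tissues, where the share of all probe sets was at most 0.0296% (QH2 in brain, against 0.0074% for Q10 in kidney). In liver the median interaction of Q10 was -0.26, against -0.08 for all probe sets, and 7 of 43 members had an unadjusted p under 0.05, a share close to the 16.9% of all probe sets.

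**Figure D4:**
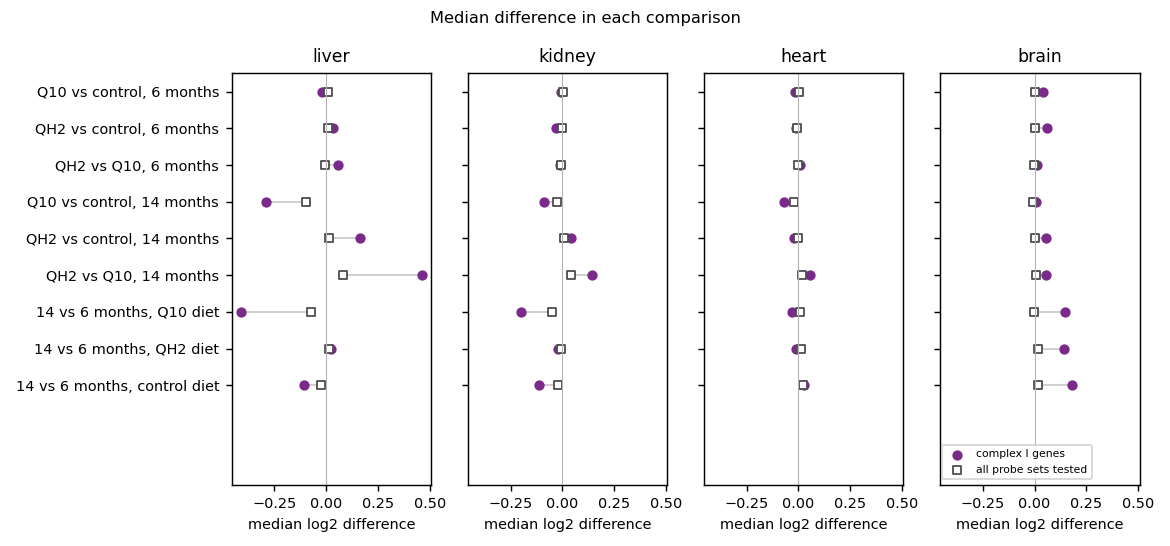
Median log2 difference of the 43 complex I genes (circles) and of all probe sets tested (squares) in 9 comparisons for liver, kidney, heart and brain; in each comparison the first-named diet or the later time is on top. The members lie right of all probe sets in liver for QH2 vs Q10 at 14 months (0.46 against 0.08) and in brain for 14 vs 6 months (0.18 against 0.02 on the control diet), and left of them in kidney for 14 vs 6 months (-0.11 against -0.02 on the control diet).

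The longer time on diet was compared with the shorter one on each diet. Age, time on diet and the set of arrays run at each time cannot be told apart in it. The direction differed between tissues: with each gene read from its brightest probe set, the called genes were all higher at 14 months in brain, all lower in kidney, and of both signs in liver and heart. Single dimmer probe sets were called against this direction for Ndufa12 in brain and for Ndufab1 and Ndufa7 in kidney. The difference between tissues was not tested.

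In brain on the control diet, 19 of 43 members were higher at 14 than at 6 months and none lower. The background was large, with 32.8% of all probe sets called and 16.2% higher. The median member difference was 0.18, against 0.02 for all probe sets. By role 11 of the called genes belonged to the membrane arm, 4 to the N module, 2 to the assembly factors and 1 to the Q module, with Ndufa4 as the last. The groups did not overlap for 26 of 43 genes, against 46.3% of all probe sets. On the Q10 diet 15 members were higher and none lower (28.6% called, 14.5% higher), and on the QH2 diet 18 were higher and none lower (34.9% called, 17.3% higher). The diets share no arrays in this comparison: 24 members were called on at least 1 diet and 9 on all 3, namely Ndufa6, Ndufab1, Ndufaf6, Ndufb10, Ndufb5, Ndufb6, Ndufc1, Ndufc2 and Ndufv2. Of all probe sets, 24.5% were called higher on at least 1 diet and 8.68% on all 3. A positive sign on all 3 diets was found for 29 of 43, against 36.2% of all probe sets. Leaving out 1 array on the control diet gave 15 to 22 calls.

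Ndufb6, an accessory subunit of the membrane arm, had the smallest p-value on the control diet. At 14 months it had 1685, 1812 and 1592 on QH2, 1578, 1484 and 1752 on Q10 and 1582, 1394 and 1641 on the control diet. At 6 months it had 1108, 1285 and 1224 on QH2, 1218, 1204 and 1085 on Q10 and 1115, 1154 and 1076 on the control diet. All 9 arrays of the later time lay above all 9 of the earlier one. The differences were 0.49 ± 0.08 on QH2, 0.45 ± 0.08 on Q10 and 0.46 ± 0.08 on the control diet (adjusted p = 0.000109, 0.000345 and 0.000237, limma). A second bright probe set of Ndufb6 did not show it, with a difference of -0.03 ± 0.06 on the control diet (adjusted p = 0.749), so the result belongs to 1 of the 2 probe sets.

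Ndufb5, another accessory subunit of the membrane arm, had 1898, 1956 and 1851 on QH2, 1794, 1767 and 1805 on Q10 and 1736, 1808 and 1829.5 on the control diet at 14 months. At 6 months the values were 1572, 1506 and 1406 on QH2, 1549, 1515 and 1545 on Q10 and 1538, 1492 and 1484 on the control diet. The times did not overlap on any diet, and the control difference was 0.25 ± 0.05 (adjusted p = 0.000891, limma). Ndufc1 had 2087, 1903 and 1793 at 14 months, against 1581, 1549 and 1414 at 6 months on the control diet (0.35 ± 0.07, adjusted p = 0.00112), and its second probe set also passed (0.31). Ndufb10 had 1425, 1379 and 1343 at 14 months, against 1173, 1093 and 856 at 6 months (0.42 ± 0.09, adjusted p = 0.00123). For Ndufb10 the lowest 6-month array widened the gap.

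The N module was represented by Ndufv2, with 2469, 2456 and 2360.1 at 14 months, against 2107, 1926 and 2059 at 6 months on the control diet (0.26 ± 0.05, adjusted p = 0.00146, limma), and its second probe set gave 0.29. Ndufa6 (0.37), Ndufa7 (0.29) and Ndufs4 (0.20) were the other called N module genes. Ndufs8 was the only called Q module gene, at 0.39 ± 0.12 (adjusted p = 0.0151), and none of its other 5 tested probe sets passed. The remaining catalytic subunits did not pass, with differences of 0.14 for Ndufs7, 0.11 for Ndufv1, 0.05 for Ndufs1 and -0.00 for Ndufs3. A second probe set of Ndufs7 did pass (0.31, adjusted p = 0.00181). Ndufa12 was split: its main probe set was higher without passing on the control diet (0.19, adjusted p = 0.0776) and a dimmer one was called lower (-0.96, adjusted p = 0.0133).

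Among the assembly factors, Ndufaf6 had the largest difference on the control diet. It had 121, 155 and 133 on QH2, 135, 128 and 107 on Q10 and 123, 119.8 and 126 on the control diet at 14 months. At 6 months it had 73.4, 89.8 and 77.4 on QH2, 77.3, 67.5 and 80.8 on Q10 and 89.4, 99.6 and 66.7 on the control diet. The times did not overlap on any diet, with differences of 0.76, 0.71 and 0.54 ± 0.15 on QH2, Q10 and control. Ndufaf1 (0.36) also passed on the control diet. Membrane arm genes that passed there with smaller differences were Ndufa3 (0.29), Ndufab1 (0.27), Ndufb11 (0.24), Ndufc2 (0.22), Ndufs5 (0.19), Ndufa1 (0.17) and Ndufb2 (0.12), and Ndufa4 was 0.18 higher.

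The upstream sequence of the 2 genes with the smallest p-values in brain is given next, from the same RefSeq build, at chr4:40279422-40279671 on the minus strand (Ndufb6) and chr3:32736813-32737062 on the plus strand (Ndufb5). Capitals mark motif letters, on either strand.
Ndufb6: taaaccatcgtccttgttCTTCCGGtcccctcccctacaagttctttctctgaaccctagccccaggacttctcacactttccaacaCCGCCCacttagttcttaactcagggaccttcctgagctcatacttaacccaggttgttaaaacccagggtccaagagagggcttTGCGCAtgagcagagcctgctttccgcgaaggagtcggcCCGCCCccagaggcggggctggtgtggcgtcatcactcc
Ndufb5: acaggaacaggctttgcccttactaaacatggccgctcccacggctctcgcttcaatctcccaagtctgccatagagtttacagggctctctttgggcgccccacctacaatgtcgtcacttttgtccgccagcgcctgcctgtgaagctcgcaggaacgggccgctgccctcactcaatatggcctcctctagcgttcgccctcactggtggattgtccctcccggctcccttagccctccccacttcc
Upstream of Ndufb6, the ETS motif began 232 bases before the start, the SP1 motif 163 and 39 bases before it and the NRF1 motif 78 bases before it. None of the 6 motifs was found upstream of Ndufb5.

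**Figure D5:**
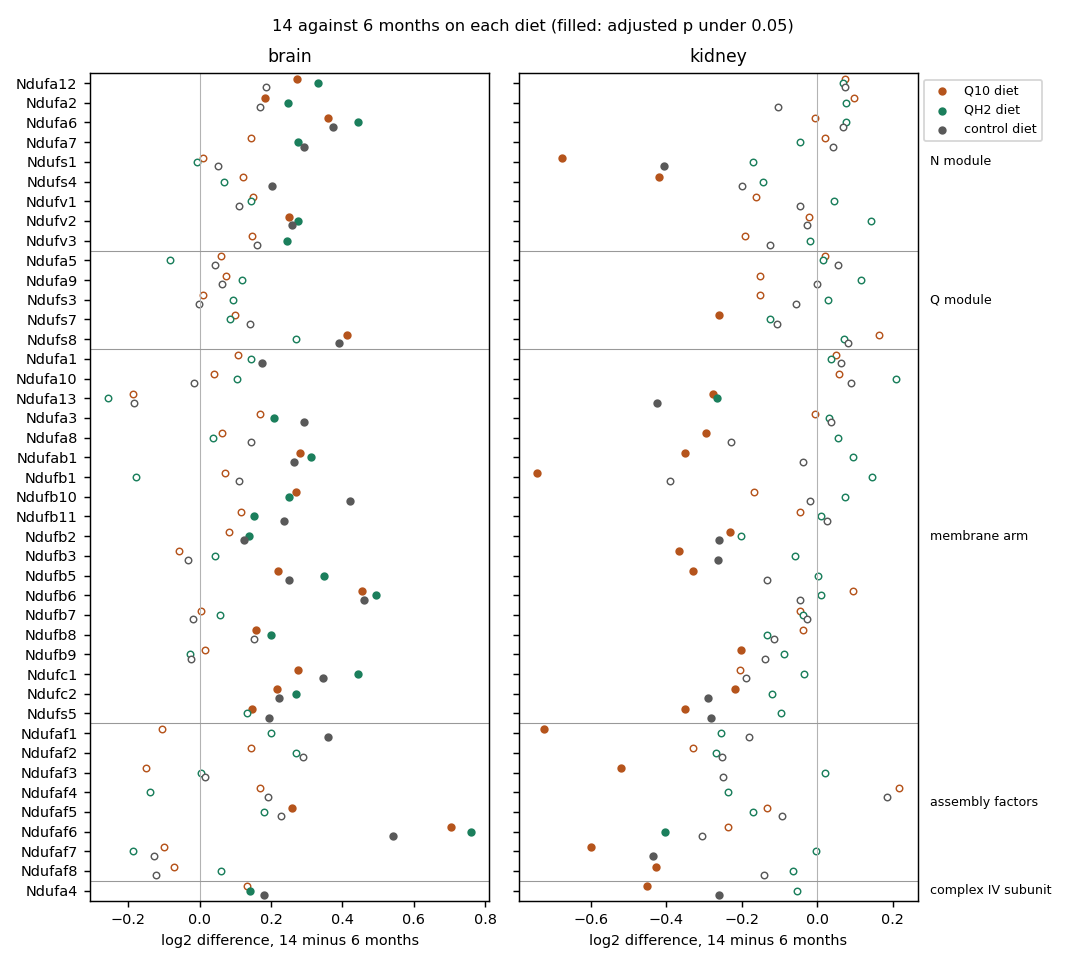
Log2 difference, 14 minus 6 months, on the Q10, QH2 and control diets for 42 genes (without Ndufa4l2) in brain and kidney, grouped by role; filled points have an adjusted p under 0.05. In brain all filled points lie right of 0 (24 genes on at least 1 diet); in kidney all lie left of it (19 genes), most of them on the Q10 diet.

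Other genes moved in brain with the members. Of 38 subunits of complexes III to V, 21 were higher and 1 lower at 14 months on the control diet, with a median of 0.16. Of 8 regulators, 4 were higher, Tfam (0.43 ± 0.09), Gabpa (0.41 ± 0.14), Esrra (0.40 ± 0.14) and Yy1 (0.22 ± 0.08). Of 9 further assembly factors only Foxred1 was called, and it was lower (-0.48 ± 0.14, adjusted p = 0.0117, limma). Cell markers also differed: 3 of 3 oligodendrocyte markers were higher, 3 of 4 astrocyte markers higher and 1 lower, 3 of 6 neuron markers lower, and 4 of 10 macrophage markers higher and 1 lower. Summed oligodendrocyte signal was 14459, 13519 and 12702 at 14 months, against 12079, 9244 and 9915 at 6 months, and summed neuron signal 22301, 22165 and 23284, against 23596, 24875 and 26168. Summed astrocyte signal was 8523, 8702 and 8219, against 7812, 8105 and 7930. The Actb ratio was 1.73, 1.69 and 1.66 at 14 months, against 1.80, 1.86 and 1.86 at 6 months, and 10 members were called with its log2 as a covariate. The part of these markers in the result was not tested.

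In kidney on the control diet, 8 of 43 members were lower at 14 than at 6 months and none higher. Of all probe sets 9.39% were called and 4.67% were lower. The median was -0.11, against -0.02 for all probe sets. On the Q10 diet 18 were lower (28.2% of all probe sets called, 15.8% lower) and on the QH2 diet 2 (10.2% called, 3.84% lower). In all, 19 members were lower on at least 1 diet, and Ndufa13 alone on all 3, against 17.8% and 1.47% of all probe sets. With the values as deposited none was called on the control diet and the median was 0.25, below the 0.44 of all probe sets. Leaving out 1 array at a time left 4, 3 and 2 calls without 6-month arrays 1, 2 and 3, and 2, 6 and 5 without 14-month arrays 1, 2 and 3.

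Ndufa13, a membrane arm subunit also known as GRIM-19, had 5193, 5376 and 5142 on QH2, 5418, 4717 and 4804 on Q10 and 4659, 4292 and 5465 on the control diet at 14 months. At 6 months it had 6572, 6029 and 6284 on QH2, 6284, 6334 and 5484 on Q10 and 6448, 6479 and 6334 on the control diet. The times did not overlap on any diet, and the control difference was -0.43 ± 0.08 (adjusted p = 0.00566, limma). Ndufs1 had 1401, 1413 and 1283 at 14 months, against 1799, 1809.7 and 1819 at 6 months on the control diet (-0.41 ± 0.08, adjusted p = 0.00750), and its difference on the Q10 diet was -0.68 ± 0.08 (adjusted p = 3.17e-05). On the QH2 diet, where it had 1579.8, 1401 and 1524, against 1690.0, 1651 and 1726, it did not pass. Ndufaf7 (-0.44), Ndufc2 (-0.29), Ndufs5 (-0.28) and Ndufa4, Ndufb2 and Ndufb3 (-0.26 each) were the other genes called on the control diet. Single dimmer probe sets went the other way and were called, for Ndufab1 (0.86) and Ndufa7 (0.35), whose main probe sets were not called.

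Both other assembly factors called in kidney on the control diet were lower at 14 months, Tmem126b (-0.94 ± 0.21) and Nubpl (-0.51 ± 0.13). Of 39 subunits of complexes III to V, 5 were lower and 1 higher, and Yy1 was higher (0.41 ± 0.09). Cell markers differed as well: 4 of 4 B cell markers, 3 of 10 macrophage markers and 1 of 3 T cell markers were higher at 14 months. Summed B cell signal was 563, 241 and 992, against 62.0, 40.4 and 58.6, and summed macrophage signal 4788, 2386 and 5900.2, against 2030.2, 2378 and 2089. On the Q10 diet, which gave the most calls, 7 of 10 macrophage markers, 4 of 4 B cell markers, 2 of 3 T cell markers and 1 of 3 neutrophil markers were higher at 14 months, with 1 T cell marker and 2 of 7 kidney tubule markers lower. Summed macrophage signal on that diet was 3250.3, 14634 and 7381, against 2601, 2778 and 2519.6, and summed B cell signal 235, 1903 and 1846, against 34.2, 58.5 and 44.6. Their part in the result was not tested.

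In heart on the control diet, 2 members were higher at 14 months, with 2.05% of all probe sets called and 1.05% higher. Ndufa6 had 3436, 3309 and 3054 at 14 months, against 2604, 2504 and 2621 at 6 months (0.34 ± 0.07, adjusted p = 0.0235, limma). Ndufb6 had 2871, 2729.8 and 2626, against 2026, 2299 and 2178 (0.34 ± 0.08, adjusted p = 0.0399), while its second bright probe set gave -0.10 and did not pass. Neither gene's times overlapped. Ndufa6 remained called in 2 of 6 fits with 1 array left out and Ndufb6 in none. The members' median was 0.03, and it turned to -0.10 after scaling to the 75th percentile, where no member was called. With the values as deposited 40 were called higher, at a median of 0.65, against 0.68 for all probe sets. On the Q10 diet 3 members were higher and 4 lower (10.6% called), and on the QH2 diet 2 were higher and 1 lower (2.29% called), and Ndufb6 was called higher on all 3 diets, as were 0.241% of all probe sets. Ndufs1 in heart had 3715, 3195 and 3246 at 14 months, against 4648, 4847 and 4887 at 6 months on the Q10 diet (-0.50 ± 0.07, adjusted p = 0.000393, limma), and did not pass on the other diets. Summed macrophage signal in heart on the Q10 diet was 3988, 5251 and 5748 at 14 months, against 3268, 4508 and 3112 at 6 months. Its part in the result was not tested.

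In liver on the control diet, Ndufa2 was higher at 14 months, with 2445, 2457 and 2577, against 1245, 1690.2 and 1701 at 6 months (0.70 ± 0.17, adjusted p = 0.0151, limma), and Ndufa4l2 was lower, as given above. These 2 calls stood against 7.36% of all probe sets. None was left without 14-month array 3 or without 6-month array 1, and 1 without 14-month array 2 or without 6-month array 2. On the Q10 diet 12 members were lower and none higher (12.5% of all probe sets called, 6.59% lower), led by Ndufaf1 with 131, 67.7 and 99.96 at 14 months, against 194, 203 and 175 at 6 months (-0.98 ± 0.18, adjusted p = 0.00278). The Q10 arrays at 14 months are those with the high macrophage sums. On the QH2 diet no member was called (2.35% of all probe sets were), and 5 had an unadjusted p under 0.05, against 15.4% of all probe sets.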

How the data were processed

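RNA of 72 tissue samples, 3 for each of 24 groups, was measured on Affymetrix mouse genome arrays. The authors deposited 1 linear signal intensity per probe set and array, made with GCOS per the submitters' processing notes. Version, settings and scaling of GCOS: not given in the sources used here. Of 45101 probe sets 64 controls were left out, and gene symbols came from the platform annotation, updated through Entrez numbers.

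For diet and duration, the intensities were quantile normalised within a tissue, an offset of 1 was added and log2 taken. Probe sets whose mean lay above the 40th percentile were fitted in limma 3.58.1 (R 4.3.3), with the 6 groups of a tissue together and an intensity trend. All p-values were adjusted by Benjamini-Hochberg over all probe sets tested, and called under 0.05. Tissues were compared after quantile normalisation over the 72 arrays. With 3 arrays a group, their number limits the precision. A p-value sets a difference against the spread between arrays within groups, pooled over all groups of the fit. The fit was tested on simulated data.

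Per comparison the text names up to 12 called genes with the smallest p in each direction, the 4 smallest where fewer than 4 were called, up to 8 of the largest between tissues, the catalytic subunits with Ndufa4 and Ndufa4l2, and probe sets of the same gene that disagree. The members, gene lists and this rule were chosen with earlier results of these data known. Alternatives were other scalings, offset, filter, variance trend, probe set, array subsets, a replicate block and an RNA quality covariate.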

Additional observations from a re-analysis of the deposited data

Results flagged for a closer look

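In liver, the test of whether the effect of Q10 differed between the durations called Ndufa4l2. The gene passed the filter on low signal through its higher groups. The fitted interaction was 3.28 on the log2 scale (adjusted p = 0.0443, limma), while 2.33% of all probe sets passed this test. Q10 livers had 27.5, 31.4 and 8.66 at 14 months and control livers 5.64, 3.44 and 1.99, all 3 under the filter level of 7.34 in liver, so the fitted value gives no size of a difference. The call was lost with the values as deposited, without the filter and without the intensity trend. It was also lost with the RNA quality covariate and in a fit on the groups compared alone. It was kept in 4 of 12 fits that left out 1 array.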

How the results depend on the processing

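All numbers in this paragraph are counts of members called, unless a unit is given. With the values as deposited, QH2 vs Q10 at 14 months gave 0 in liver (15 in the report) and 0 in kidney (7), Q10 vs control at 14 months in liver 1 (2), 14 vs 6 months 0 in liver (2), 0 in kidney (8) and 40 in heart (2). In kidney the differences of Ndufs5, Ndufa4, Ndufb2 and Ndufb3 then turned to 0.0573, 0.0072, 0.0743 and 0.10 on the log2 scale, where the median of all probe sets was 0.44. Scaling to the 75th percentile gave 38 for QH2 vs Q10 in liver, 4 and 2 for Q10 vs control at 14 months in liver and kidney, and 1 and 0 for 14 vs 6 months in liver and heart. With no filter, Q10 vs control in liver gave 1, QH2 vs Q10 in kidney 3, and 14 vs 6 months 4 in kidney and 1 in heart. With no intensity trend these 4 gave 0, 1, 4 and 0, and QH2 vs Q10 in liver 7. The RNA quality covariate gave 0 for QH2 vs Q10, for Q10 vs control and for 14 vs 6 months in liver, 4 for 14 vs 6 months in heart and 10 in brain (19). Fits on the groups compared alone gave 0 for QH2 vs Q10 in liver and kidney and 0 for Q10 vs control in liver, and for 14 vs 6 months 5 in liver and 4 in heart. Without Q10 livers 2 and 3 at 14 months 1 Q10 array was left there, too few for a count. The second brightest probe set, which only some genes have, gave 3 for QH2 vs Q10 in kidney and 0, 2, 0 and 8 for 14 vs 6 months in liver, kidney, heart and brain. The interaction of Q10 in liver (1) gave 0 under all of these settings with a count, except the scaling and offset 16.

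Same-numbered arrays of different groups did not deviate together, with 5 of 72 within-tissue correlations over 0.1, so the numbers were not taken as pairs. A replicate block gave 4 for Q10 vs control at 14 months in liver, 3 for QH2 vs Q10 and 4 for 14 vs 6 months in kidney, and 0 for the interaction of Q10 in liver.

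Between tissues, counts of members at least 2-fold apart moved as follows. Scaling to the 75th percentile gave 29 for heart vs kidney (16), 26 for kidney vs brain (3), 1 for kidney vs liver (2) and 26 for brain vs liver (4). Values as deposited gave 19 for kidney vs liver and 7 for brain vs liver. The second probe set gave 7, 20 and 14 for heart vs kidney, brain and liver, and 5 and 1 for kidney vs brain and liver. The covariate gave 6 for kidney vs liver and 2 for brain vs liver, and offset 16 gave 2 for brain vs liver. The 6-month arrays alone gave 8 for kidney vs brain, 1 for kidney vs liver and 2 for brain vs liver, and the 14-month arrays alone 4 for kidney vs liver.

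Leaving out 1 array gave 3 to 33 for QH2 vs Q10, 0 to 22 for Q10 vs control at 14 months, 0 to 2 for 14 vs 6 months and 0 to 10 for the interaction of Q10 in liver. In kidney it gave 2 to 9 for QH2 vs Q10, 0 to 1 for Q10 vs control and 2 to 6 for 14 vs 6 months. In heart it gave 0 to 2 for Q10 vs control and for QH2 vs Q10, and 0 to 1 for QH2 vs control, the interaction of QH2 and 14 vs 6 months, and in brain 15 to 22. The cause of these changes was not tested, beyond the fewer arrays or genes that some alternatives hold. Counting all member probe sets, and 14 vs 6 months on the Q10 and QH2 diets, were added after seeing the data. All 93 member probe sets tested in liver gave 33 calls for QH2 vs Q10 at 14 months. Arrays of 1 time may share age, time on diet and run, and dim probe sets such as that of Ndufa4l2 limit what the arrays can show.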

Other observations

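How far the members varied together within a group was described by correlating their deviations from the group means over the 18 arrays of a tissue. The median correlation between pairs of members was highest in liver, at 0.42, against 0.22 in heart, 0.21 in brain and 0.16 in kidney. That of a member with the median of the other members was 0.67 in liver and 0.47 to 0.49 elsewhere, against 0.03 to 0.05 for all other genes. The liver groups were unequal in spread. The members' median relative to the 14-month control arrays had an SD of 0.25 in the Q10 livers at 14 months. In the other liver groups this SD was 0.015 to 0.062. The part of that Q10 group in the liver correlations was not tested. The log2 Actb ratio correlated with the members' median deviation at 0.73 for liver, 0.72 for kidney, 0.63 for heart and 0.085 for brain. Whether RNA quality had a part in how the members varied together was not tested.

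The genes outside the complex most like the members were Cd99l2, Slc6a12 and Ebp in liver (0.97 for the first), Pgp, Sbsn and Bex1 in kidney (0.93), Micos10, Fam81a and Paip2 in heart (0.92), and Osbpl9, Lpar1 and Rhoq in brain (0.91). Micos10 is a subunit of the complex that shapes mitochondrial cristae. No single gene was among the first 3 in more than 1 tissue.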
